A study of Mus musculus with 2 samples.

Results

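Hemoglobin-high cells are single mouse leukemia cells in which α- and β-globin transcripts took up at least 1% of all unique molecular identifiers (UMIs, the tags that count single mRNA molecules). They were picked from the barcodes with at least 500 detected genes and at most 10% mitochondrial UMIs, and had to hold fewer than 10 UMIs of the mast cell proteases Mcpt1 and Mcpt2 per 10000. The rule found 1096 hemoglobin-high cells among 14292 kept cells, out of 15114 deposited barcodes. They were compared with the 12863 kept cells whose globin share was below 1%, called the cells below 1% here, which had no limit on Mcpt1 and Mcpt2 and include the cells above it (317 and 134 in the 2 libraries). Because the globin share chose the cells, globin levels are given as a description only, and the other genes carry the comparison.

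Both libraries came from mice that had received leukemia cells driven by AE9a, a truncated form of the AML1-ETO fusion protein, carried together with GFP by a retrovirus. The founder cells were fetal liver cells of Usp18+/f mice with a tamoxifen-activated Cre, so the control library also carries 1 floxed Usp18 allele and the Cre, which is expressed in most cell types. Once the recipients were sick they were injected with oil (the oil library, labelled Usp18+/f) or tamoxifen (the tamoxifen library, labelled Usp18+/Δ), and 3 days after the first injection GFP+ Lin- c-Kit+ cells were sorted from the spleen. Each library pooled the cells of 3 mice, so the mice cannot be told apart and each group is 1 library. No test between conditions was therefore possible, and hemoglobin-high cells were compared with the cells below 1% within each library without a test. Every interval given here is a 95% interval for counting error only, since UMIs and cells of 1 library are not replicates, and no comparison has a replicate check.

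Globin chains carry oxygen in red blood cells, and their genes sit in an α and a β cluster that erythroid precursors switch on as they mature. GATA1 and KLF1 drive this program from early on, through GATA and CACCC boxes in the promoters and enhancers of globin and other erythroid genes. Later in maturation the cells make the enzyme ALAS2, which starts heme synthesis in erythroid cells, and the proteins of the red cell membrane and its skeleton. The spleen is a site of red cell production in the mouse, above all under stress, and spleen suspensions also hold red cells that can break and release globin mRNA. Red cells were lysed during sample preparation, and barcodes of empty droplets were not analysed here, so the part of free globin RNA in any value was not tested.

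The 2 libraries were of like depth, with 62646142 and 63844280 UMIs in kept cells and a median of 8670 and 8148 UMIs per cell. Usp18 mRNA went against the labels. In hemoglobin-high cells it stood at 5.71 counts per 1000000 UMIs (CPM) in the oil library labelled Usp18+/f and at 39.8 CPM in the tamoxifen library labelled Usp18+/Δ, and in the cells below 1% at 5.62 and 22.5 CPM. Usp18 is itself an interferon-stimulated gene, and the deposited 3′ counts do not say whether its reads lie inside the floxed part, so these values do not check the deletion. The libraries shared 15 barcode sequences, none of which was a hemoglobin-high cell in both. All CPM values leave the globin UMIs out of the total.

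The promoters of the globins that defined the cells and of Alas2, the gene outside the rule that heads the 10 highest named further on, are shown because they hold the boxes through which this program is known to be controlled. Each run is the 150 bases before the annotated start, 5′ to 3′ on the gene's strand, from RefSeq for GRCm38.p6. Capitals mark the GATA motif, spelled GATAA, the box spelled CACCC, the box spelled CCAAT or the box spelled TATAA, each searched on both strands.
Hbb-bs, chr7:103827929-103828078, minus strand: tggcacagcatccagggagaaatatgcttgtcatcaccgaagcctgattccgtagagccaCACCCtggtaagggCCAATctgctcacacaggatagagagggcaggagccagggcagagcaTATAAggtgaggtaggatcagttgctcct
Hbb-bt, chr7:103813924-103814073, minus strand: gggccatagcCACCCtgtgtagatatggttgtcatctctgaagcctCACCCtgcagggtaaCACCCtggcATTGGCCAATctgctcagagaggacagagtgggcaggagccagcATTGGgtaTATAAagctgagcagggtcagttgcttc
Hba-a1, chr11:32283522-32283671, plus strand: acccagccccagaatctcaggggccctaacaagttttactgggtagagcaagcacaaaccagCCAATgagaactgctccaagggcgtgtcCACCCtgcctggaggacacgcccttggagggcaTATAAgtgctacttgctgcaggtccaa
Alas2, chrX:150547267-150547416, plus strand: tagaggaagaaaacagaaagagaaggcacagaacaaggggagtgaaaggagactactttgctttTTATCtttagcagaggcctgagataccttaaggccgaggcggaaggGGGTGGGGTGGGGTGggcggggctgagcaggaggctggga

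The 3 globin promoters share the order CACCC or CCAAT box and then TATAA. The last lies 29 bases before the start in Hbb-bs, 28 in Hbb-bt and 27 in Hba-a1. Hbb-bs has 1 CACCC, 90 bases before the start, and Hbb-bt has 3, at 140, 104 and 89. In Hba-a1 the order is turned, with CCAAT at 88 and CACCC at 60. The Alas2 window has no TATAA or CCAAT, but 1 GATAA complement at 86 bases and 3 adjoining CACCC complements at 40, 35 and 30. GATAA was not among the letters of these 3 globin windows. Over all 32851 promoters of the table, the same 150 bases held GATAA in 13.3%, CACCC in 37.4%, CCAAT in 24.5% and TATAA in 14.2%. Over 250 bases, GATAA was found in 53.3% of 15 promoters matched for the late erythroid genes named further on, 36.4% of 22 for the early ones, 26.7% of 15 for heme synthesis and 21.2% of 33 for interferon-stimulated genes, beside 22.6% of all promoters. CACCC was found in 66.7%, 95.5%, 66.7% and 75.8% of them, beside 52.0% of all. A promoter row was found for 7 of the 8 globin genes; Hbb-bh1 had none, and neither had Slc4a1 or Car1. Hba-a1 and Hba-a2 share an unbroken run of 247 of the 250 bases, and the Hbb pair one of 14.

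Adult β-globin made up most of the globin mRNA. Hbb-bs (chr7:103826534-103828096 in the GENCODE vM21 annotation of mm10) stood at 144 UMIs per 10000 in hemoglobin-high cells of the oil library labelled Usp18+/f and at 184 in the tamoxifen library labelled Usp18+/Δ, against 8.73 and 7.15 in the cells below 1%. Hbb-bt (chr7:103812524-103813996) stood at 39.3 and 63.7 per 10000. The α-globin gene Hba-a1 (chr11:32283511-32284465) stood at 59.0 and 64.7, and Hba-a2 (chr11:32296489-32297298) at 9.84 and 13.8. Transcripts of each pair match over most of their length, 587 of 628 bases for Hbb-bs against Hbb-bt and 537 of 554 for Hba-a1 against Hba-a2, so the split of reads within a pair is uncertain. The embryonic globins were close to 0: Hbb-bh1 had 10 and 4 UMIs in hemoglobin-high cells of the 2 libraries, Hbb-bh2 had 5 and 4, Hbb-y had 0 and 3, and Hba-x had none in either library, against 108588 and 144913 globin UMIs in all.

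Most hemoglobin-high cells carried both chains. Hbb-bs was seen in 98.6% and 97.3% of them and Hba-a1 in 98.4% and 98.2%; 5 of 495 and 6 of 601 had no α-globin UMI. Globin was also nearly everywhere else: Hba-a1 had a UMI in 83.9% and 76.3% of the cells below 1%, and only 4.66% and 6.83% of kept cells had no globin UMI at all. The share per cell ran without a gap across the 1% line. Its median in hemoglobin-high cells was 1.75% in the oil library labelled Usp18+/f (10th to 90th percentile 1.12 to 5.24%, highest 42.3%) and 2.01% in the tamoxifen library labelled Usp18+/Δ (1.15 to 7.35%, highest 38.5%). In the cells below 1% the medians were 0.0826% and 0.0600%. Shares of at least 5% were reached by 51 and 95 hemoglobin-high cells, at least 10% by 18 and 39, and at least 20% by 2 and 14. Hemoglobin-high cells, 7.19% and 8.12% of kept cells, held 44.7% and 56.7% of all globin UMIs.

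**Figure D1:**
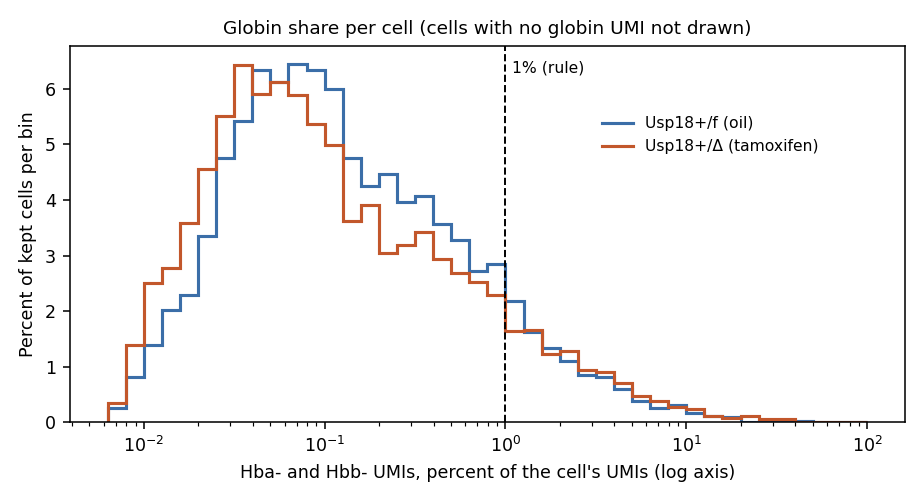
Distribution of the globin share over kept cells, in percent of each library's kept cells per bin (y axis) against the share of the cell's UMIs on a log axis (x axis), with 1 line for each library and the 1% rule as a dashed line. Both curves peak below 0.1% and fall smoothly through 1%; cells with no globin UMI (4.66% and 6.83%) are not drawn.

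The mixture of globins differed along this range. The ratio of α- to β-globin UMIs was 1.6 and 1.25 in cells with a share up to 0.1%, 0.735 and 0.514 between 0.1 and 0.25%, and 0.464 and 0.351 between 0.25 and 0.5%. From 0.5% upwards it lay between 0.339 and 0.451 in the oil library labelled Usp18+/f and between 0.287 and 0.347 in the tamoxifen library labelled Usp18+/Δ. Summed over hemoglobin-high cells it was 0.376 (0.371 to 0.381) and 0.317 (0.313 to 0.320), below the 0.551 and 0.458 of the cells below 1%. Single cells varied much more than these sums: among hemoglobin-high cells with at least 20 globin UMIs, α-globin made up a median of 23.4% and 20.7% of the globin UMIs, with a 10th to 90th percentile range of 5.25 to 52.7% and 4.44 to 48.3%. Next to the line, the ratio was 0.409 (0.388 to 0.430) just below and 0.261 (0.242 to 0.282) just above it in the oil library labelled Usp18+/f, and 0.323 (0.303 to 0.345) and 0.390 (0.359 to 0.424) in the other, so its direction across the line differed between the libraries. Alas2 stood at 12.0 and 15.4 CPM in the 88 and 72 cells with a share from 0.9 to 1%, and at 12.9 and 15.4 CPM in the 44 and 35 hemoglobin-high cells from 1 to 1.1%, on 4 to 9 UMIs each.

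Alas2 was higher in each bin of globin share than in the one before, and other erythroid genes differed between the lowest and the highest bins. Alas2 stood at 1.38 and 1.82 CPM in cells up to 0.1% globin, at 8.41 and 11.3 CPM from 0.5 to 1%, at 16 and 37.3 CPM from 1 to 2%, and at 230 and 329 CPM from 5%. These bins were made on the globin share alone and also hold the cells high in Mcpt1 and Mcpt2. Rhag, a membrane glycoprotein of the Rh complex, went from 45.5 and 51.3 CPM in the lowest of these bins to 204 and 196 CPM in the highest. Tfrc, the transferrin receptor that brings iron into the cell, stood at 73.7 and 72.7 CPM up to 0.1%, at 94.2 and 80.2 CPM from 1 to 2% and at 275 and 151 CPM from 5%. Klf1 went from 157 and 138 CPM to 242 and 230 CPM. Car1, a carbonic anhydrase of early erythroid cells, was high in every bin: in the oil library labelled Usp18+/f it went from 1962 to 1324 CPM, and in the tamoxifen library labelled Usp18+/Δ from 2001 to 1819 CPM.

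**Figure D2:**
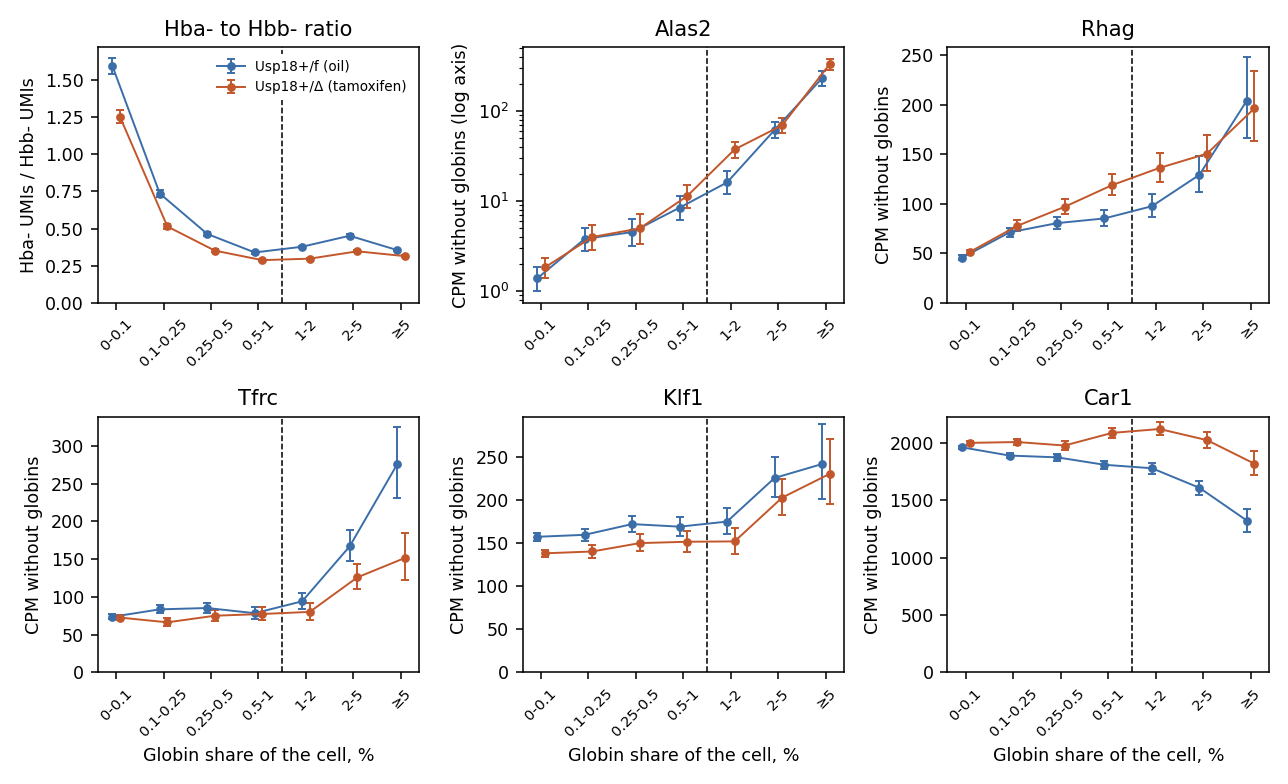
The α- to β-globin UMI ratio and the CPM of 5 erythroid genes (y axes; the Alas2 axis is logarithmic) in bins of the cell's globin share in percent (x axes), with 1 line for each library, 95% counting intervals as bars and the 1% rule as a dashed line. The ratio is lowest from 0.5 to 1% and stays below 0.46 above it, while Alas2 goes from 1.38 and 1.82 to 230 and 329 CPM.

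Outside the globins, hemoglobin-high cells were close to the cells below 1% in most genes. Of 8892 genes that averaged 5 CPM or more, 92.2% in the oil library labelled Usp18+/f and 84.0% in the tamoxifen library labelled Usp18+/Δ lay within 0.5 of equal levels on the log2 scale, and the median log2 ratio was -0.04 and -0.05. At least 1.5-fold higher levels in both libraries were found for 197 genes, 2.22% of those measured, and at least 1.5-fold lower levels in both for 92, or 1.03%. With 1 library of each kind, such genes are called here only by this size. The gene lists were drawn up with earlier results of these data known, so their direction is no independent evidence.

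Late erythroid genes showed the widest differences. Alas2 (chrX:150547375-150570638) stood at 40.9 CPM in hemoglobin-high cells against 2.95 CPM in the cells below 1% of the oil library labelled Usp18+/f, a log2 ratio of 3.79 (3.48 to 4.11). In the tamoxifen library labelled Usp18+/Δ it stood at 79.6 against 3.19 CPM, a log2 ratio of 4.64 (4.38 to 4.91). Slc4a1 (chr11:102348824-102366203), the anion exchanger band 3 of the red cell membrane, stood at 10.9 against 0.384 CPM and at 31.4 against 0.205 CPM. It rested on few molecules, 46 UMIs in 25 hemoglobin-high cells and 135 UMIs in 53. Hemgn, a nuclear protein of erythroid precursors, was higher by 1.94 (1.58 to 2.29) and 1.95 (1.55 to 2.33) on the log2 scale. The skeleton proteins Epb42 and Dmtn were higher by 1.40 and 1.83 and by 1.18 and 1.19.

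Other members of the group ranged from no difference to ratios above 1. Slc25a37, mitoferrin, which carries iron into mitochondria, was higher by 0.79 and 1.31 on the log2 scale. Bnip3l, needed to clear mitochondria from maturing red cells, was higher by 0.26 and 0.33, Rhd, an Rh antigen protein, by 0.63 and 0.64, and Icam4, an adhesion protein, had log2 ratios of 0.12 and -0.06. Of the 28 late erythroid genes, 27 had a row in the files and 23 passed the level filter. The median log2 ratio of the 23 was 0.60 and 0.71, and 13 of them, 56.5%, were at least 1.5-fold higher in both libraries. Some entered only through hemoglobin-high cells, where they had to differ: counting just the 18 that reached 5 CPM in the cells below 1% of both libraries, 8 were at least 1.5-fold higher, beside 1.72% of all genes filtered the same way, with medians of 0.58 and 0.65. The 4 with a row that missed the filter were Trim58, Fn3k, Add2 and Tmod1.

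Early erythroid genes were higher by less, and the leukemia expressed most of them throughout. Car2, a carbonic anhydrase, stood at 1027 against 678 CPM and at 1098 against 603 CPM, log2 ratios of 0.60 and 0.86. Rhag stood at 128 against 59.3 CPM and at 155 against 65.3 CPM. Tfrc was higher by 0.91 (0.78 to 1.03) and 0.69 (0.56 to 0.83), Nfe2, a factor that acts on globin enhancers, by 0.79 and 0.93, and Aqp1, a red cell water channel, by 1.46 and 1.80. Blvrb, biliverdin reductase B, was higher by 0.42 and 0.50 and Vamp5 by 0.16 and 0.08.

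Klf1, Gata1 and Epor differed less than Nfe2. Klf1 stood at 204 against 160 CPM and at 187 against 140 CPM, log2 ratios of 0.35 (0.24 to 0.45) and 0.42 (0.32 to 0.53). Gata1 stood at 161 against 140 CPM and at 134 against 135 CPM, ratios of 0.20 and -0.01. The receptor gene Epor, through which erythropoietin acts on precursors, had ratios of 0.01 and 0.12 with intervals on both sides of 0. Car1 had a ratio of -0.14 in the oil library labelled Usp18+/f, at 1743 against 1919 CPM, and of 0.09 in the tamoxifen library labelled Usp18+/Δ, at 2130 against 1995 CPM. All 20 early genes passed the filter, also in the cells below 1% alone; their median log2 ratio was 0.40 and 0.46, the intervals of 14 lay above 0 in both libraries, where those of 8.87% of all genes did, and 5 were at least 1.5-fold higher in both, beside 1.72% of all genes.

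**Figure D3:**
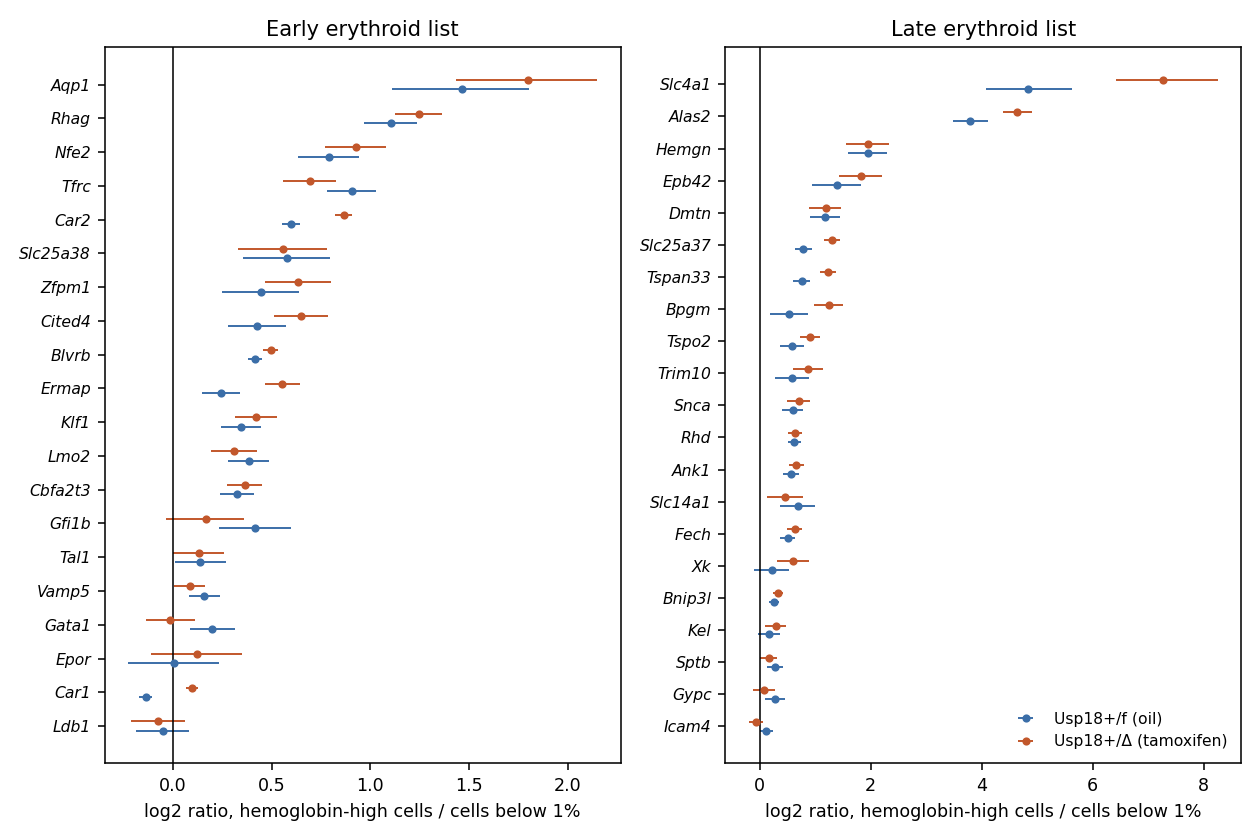
Log2 ratio of CPM in hemoglobin-high cells over the cells below 1% (x axes) for 20 early and 21 late erythroid genes (y axes), 1 point for each library with its 95% counting interval. Alas2 and Slc4a1 lie above 3 in both libraries, while Gata1, Epor, Car1, Ldb1 and Icam4 lie within 0.25 of 0.

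Heme synthesis genes were higher by a similar size. Of 14 heme synthesis genes, 12 had intervals above 0 in both libraries, beside 8.87% of all genes, and 5 were at least 1.5-fold higher in both, with medians of 0.52 and 0.53. Alas2 entered only through hemoglobin-high cells; of the 13 that reached 5 CPM in the cells below 1% of both libraries, 4 were at least 1.5-fold higher, beside 1.72% of all genes, with medians of 0.51 and 0.51. Beside Alas2 the higher genes included Alad, which joins 2 molecules of aminolevulinate, by 0.82 and 0.74, Uros by 0.79 and 0.69, and Tmem14c, a mitochondrial porphyrin transporter, by 0.70 and 0.69. Cpox and Glrx5 were higher by 0.52 and 0.45 and by 0.42 and 0.42, and Abcb10 by 0.13 and 0.39. Alas1, the housekeeping form of the first enzyme, had ratios of 0.38 and -0.90 on 31 and 14 UMIs.

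Among 13 iron genes, the ferritin light chain Ftl1 stood at 2454 against 1502 CPM and at 3212 against 1643 CPM, and the heavy chain Fth1 was higher by 0.31 and 0.36. Ncoa4, which takes ferritin to lysosomes, had ratios of 0.09 and 0.43, and the iron chaperone Pcbp1 of 0.01 and -0.14. The iron exporter Slc40a1 was higher by 0.87 and 1.47 but low, at 8.56 and 14.2 CPM. Hmox1, which breaks heme down, had 5 UMIs in hemoglobin-high cells of the oil library labelled Usp18+/f and 92 in the tamoxifen library labelled Usp18+/Δ, where 10 cells held 84.8% of them. For the group, the medians were 0.31 and 0.43, and 5 of 13 were at least 1.5-fold higher in both libraries, beside 2.22% of all genes; 3 of the 11 that reached 5 CPM in the cells below 1% were, beside 1.72%.

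Genes of erythropoietin signalling had medians of 0.09 and 0.25 over 10 measured of 12. The kinase gene Pim1 stood at 196 against 134 CPM and at 250 against 126 CPM, log2 ratios of 0.55 and 0.98. Cish, a feedback inhibitor induced by STAT5, was higher by 0.60 and 0.85, Bcl2l1, which codes for the survival protein BCL-XL, by 0.60 and 0.74, and Socs2 by 0.26 and 0.25. Stat5a itself was lower, with ratios of -0.43 and -0.16, and Podxl had ratios of 0.02 and 0.00.

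The late genes Alas2 and Slc4a1 were found in a minority of hemoglobin-high cells. Other late genes were seen in more of them, such as Bnip3l in 416 of 495 and 483 of 601. An Alas2 UMI was seen in 111 of 495 (22.4%, exact binomial interval 18.8 to 26.4%) and 174 of 601 (29.0%, 25.4 to 32.8%), against 2.51% and 2.58% of the cells below 1%. Slc4a1 was seen in 25 (5.05%, 3.29 to 7.37%) and 53, against 19 and 12 of the cells below 1%.

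Hemoglobin-high cells were shallower, with a median of 7980 and 6718 UMIs against 8832 and 8365, so cells were also thinned to 3000 UMIs without globins; 25 and 45 hemoglobin-high cells and 412 and 273 of the others were shallower and left out. Alas2 then had a UMI in 10.4% (7.81 to 13.5%) and 17.1% (14.0 to 20.5%) of hemoglobin-high cells against 0.932% and 1.1% of the cells below 1%. Slc4a1 was seen in 2.34% and 6.12% against 0.224% and 0.0627%, and Rhag in 26.8% and 34.9% against 15.0% and 16.9%. Car1 was seen in 90.2% and 91.2% against 96.6% and 97.0%. The median mitochondrial share was similar, 6.15% and 5.98% against 6.33% and 6.49%.

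The genes that differed most included several outside the erythroid lists. Hebp1, a heme-binding protein, stood at 44.3 against 9.51 CPM and at 27.7 against 5.35 CPM. Csf2rb2, the mouse IL-3 receptor β chain, was higher by 2.01 (1.84 to 2.18) and 2.74 (2.63 to 2.85); it is nearly identical to Csf2rb (0.76 and 1.54), so the split between them is uncertain. Cd24a, a surface glycoprotein used to stage erythroid precursors, stood at 160 against 55.8 CPM and at 205 against 70.2 CPM. Gkn3 had ratios of 1.44 and 1.62, but 10 cells held 49.5% and 46.1% of its UMIs, and it was seen in 13.3% and 9.48% of hemoglobin-high cells against 9.78% and 8.12% of the cells below 1%. Next came Tmsb4x, an actin-binding peptide (1.42 and 1.5), Btg2, an antiproliferative gene (1.40 and 1.64), Mllt3 (1.36 and 1.77) and the interferon-induced Irf7 (1.59 and 1.33) and Isg20 (1.30 and 1.59). Together with Alas2 these are the 10 highest by the rule for named genes, among genes averaging at least 20 CPM. Alas2, Hebp1 and Gkn3 were under 20 CPM in the cells below 1% of both libraries, and Irf7 and Isg20 in those of the oil library. These genes passed the average through hemoglobin-high cells, so their place in the ranking is partly set by the filter.

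The 10 lowest were Abhd17c, H2afy, Trim9, Kif26b, Zfp326, Lmo4, Dcbld1, Ptprs, Sptssa and Lonrf2, with log2 ratios from -0.74 to -1.35. H2afy, which codes for the histone variant macroH2A, stood at 69.9 against 131 CPM and at 66.6 against 127 CPM. Lmo4, a transcriptional cofactor, stood at 50.9 against 91.5 CPM and at 52.4 against 97.5 CPM. The progenitor antigen gene Cd34 was low and lower still in hemoglobin-high cells, at 1.90 against 6.44 CPM and at 9.55 against 17.3 CPM. It rested on 8 and 41 UMIs there. After thinning to 3000 UMIs it was seen in 1.28% (0.470 to 2.76%) and 3.78% (2.35 to 5.72%) of hemoglobin-high cells. In the cells below 1% it was seen in 1.69% and 5.52%. Kit, whose protein was part of the sort, had ratios of -0.40 and -0.19, and Myb, which is turned down as red cells mature, of -0.37 and -0.34. Runx1 (0.05 and 0.22) and Gata2 (0.21 and 0.41) were close to the cells below 1%, and Myc had ratios of -0.10 and -0.44. Of 9 measured myeloid and stem regulators none was at least 1.5-fold higher or lower in both libraries, beside 2.22% and 1.03% of all genes. Of 5 measured stem and progenitor genes 1, Cd34, was at least 1.5-fold lower in both. With so few genes these counts say little about either group. Adgrg1 had ratios of 0.33 and 0.56, Cd48 of 0.24 and 0.64, and Ly6e of -0.14 and 0.04.

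Markers of other cells the sort could hold were mostly near 0. None of the 13 macrophage genes reached the level filter. Their summed level in hemoglobin-high cells was 4.04 and 17.5 CPM against 6.88 and 13.6 CPM; 9 of 13 were at 0 in the oil library labelled Usp18+/f and 2, Adgre1 and Cd163, in the tamoxifen library labelled Usp18+/Δ. The 13 granulocyte genes summed to 12.6 and 8.62 CPM against 10.9 and 37.3 CPM, with Mpo, Elane, S100a8 and Camp at 0 in hemoglobin-high cells of both libraries and Ctsg at 5.47 and 4.66 CPM. The 13 lymphocyte genes summed to 11.2 and 30.3 CPM against 6.98 and 16.9 CPM. Nearly all of that was Nkg7 (10.5 and 29.8 CPM), while Cd3e and Cd3d were at 0. The 6 eosinophil genes summed to 1.43 and 6.29 CPM against 1.27 and 2.37 CPM.

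Of 14 megakaryocyte genes 3 were measured, Gp5 (0.33 and 0.36), Fli1 (-0.15 and 0.03) and Gp1ba (-0.34 and -0.32), with Ppbp at 0 and a summed level of 214 and 227 CPM against 196 and 196 CPM. Some mast cell and basophil genes were abundant in both kinds of cell: Srgn stood at 1850 against 1994 CPM and at 2118 against 1882 CPM, and Ms4a2, a chain of the IgE receptor, at 518 against 512 CPM and at 554 against 502 CPM. Over 14 measured of 20, their median log2 ratio was 0.14 and 0.61 and 3 were at least 1.5-fold higher in both libraries, beside 2.22% of all genes. Among them Cpa3, carboxypeptidase A of mast cell granules, was higher by 1.05 (0.93 to 1.16) and 0.88 (0.79 to 0.96), and Il1rl1, the IL-33 receptor, by 0.36 and 0.71, while Cma1, a chymase, had ratios of 0.14 and 0.65 that were -0.56 and -0.66 within cluster 4, one of the clusters described further on. Cells high in Mcpt1 and Mcpt2, which the rule set aside, held a globin share of at least 1% in 182 of 499 (36.5%) and 151 of 285 (53%), against 7.75% and 8.44% of the rest. The others among them stayed in the cells below 1%, so the mast cell ratios given here depend in part on the rule.

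Cell cycle genes were lower in hemoglobin-high cells of the tamoxifen library labelled Usp18+/Δ. There the median log2 ratio was -0.47 over 21 S phase genes and -0.49 over 21 G2 and M phase genes, with 18 and 21 intervals below 0, where 26.1% of all genes had one; in the oil library labelled Usp18+/f the medians were -0.16 and 0.00, with 7 and 4 intervals below 0, where 16.5% of all genes had one. Mcm6, a helicase subunit loaded before S phase, had ratios of -0.32 and -0.59, and Mcm3 and Mcm5 of -0.13 and -0.45 and of -0.02 and -0.57. Top2a, which untangles chromosomes, had ratios of -0.10 and -0.49 and Mki67 of 0.03 and -0.29. Over 12 measured p53 targets the medians were 0.37 and 0.46. The cell cycle inhibitor Cdkn1a stood at 40.7 against 20.4 CPM and at 159 against 55.4 CPM, and Phlda3 and Bax were higher by 0.32 and 0.48 and by 0.18 and 0.26. Heat shock and immediate early genes, which respond to handling, had medians of -0.03 and 0.09 over 9 measured.

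Where hemoglobin-high cells lay among all cells was read from their nearest neighbors, found without globin genes, Mcpt1 and Mcpt2. Among the 20 nearest neighbors of a hemoglobin-high cell, a mean of 18.5% in the oil library labelled Usp18+/f and 25.8% in the tamoxifen library labelled Usp18+/Δ were hemoglobin-high too, against 2.78% and 3.09% for the cells below 1% and 7.67% over all cells. They did not form 1 group. At least 10 of the 20 neighbors were hemoglobin-high for 31 (6.26%) and 104 (17.3%) of them, and 81 (16.4%) and 63 (10.5%) had no such neighbor.

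Of 8 clusters built on the same genes, cluster 4 held 477 of the 1096 hemoglobin-high cells, 18.6% of its 2569 cells. Its leading genes were Tpsg1, Serpinb1a, Csf2rb2, Mcpt4, Cpa3, Fcgr3, Lat2 and Ypel3, with Mki67 at 25.5 CPM and a median of 5196 UMIs per cell, and 19.4% of its cells were high in Mcpt1 and Mcpt2. Clusters 1, 2 and 3, led by S phase, histone and mitotic genes, and cluster 5, led by Ccnb2, Cdkn3, Hist1h2bc, Manf and Hspa5, held 4.63 to 6.54%. Cluster 7, of 92 cells led by interferon-induced genes such as Mx1, held 12.0%, on 11 hemoglobin-high cells. Cluster 8, of 57 cells led by granulocyte genes, held 7.02%, and cluster 6, of 353 cells with a median of 1042 UMIs, 1.42%.

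**Figure D4:**
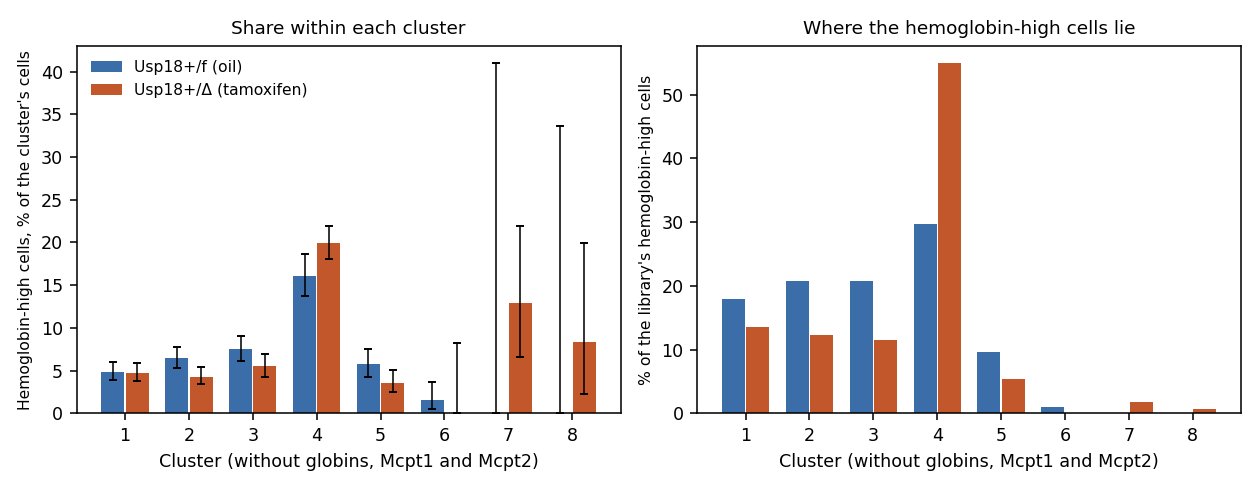
Hemoglobin-high cells as a percent of each cluster's cells with exact binomial 95% intervals (left) and the percent of each library's hemoglobin-high cells that lie in each cluster (right), by cluster number (x axes) and library. Cluster 4 holds 29.7% and 54.9% of the hemoglobin-high cells of the 2 libraries; clusters 7 and 8 have 7 and 9 cells in the oil library labelled Usp18+/f, so their bars rest on few cells.

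Inside and outside cluster 4 the erythroid differences were both present. Inside it Alas2 stood at 68.0 and 127 CPM in hemoglobin-high cells against 8.15 and 9.98 CPM in the cells below 1%; outside it at 34.5 and 47.4 CPM against 2.58 and 2.38 CPM. The late erythroid median was 0.46 and 0.51 inside and 0.64 and 0.79 outside, and the early one 0.22 and 0.38 inside and 0.41 and 0.50 outside. Tfrc was higher by 0.90 and 0.98 inside and by 1.02 and 1.07 outside. Csf2rb2 was higher by 0.98 and 1.33 inside and by 1.38 and 1.76 outside, less than over all cells.

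Cell cycle and mast cell genes behaved otherwise. Outside cluster 4 the S phase median was 0.02 and 0.03 and the G2 and M phase median 0.17 and 0.06, so the lower pooled levels were not seen among the cells of the other clusters. Inside it the medians were -0.82 and -0.29 for S phase and -1.05 and 0.03 for G2 and M phase, where these genes were low throughout. The mast cell median was 0.13 and -0.04 inside and -0.13 and -0.07 outside. Cpa3, higher in the pooled comparison, had ratios of -0.32 and -0.45 outside cluster 4. Inside it they were 0.54 in the oil library labelled Usp18+/f and -0.49 in the tamoxifen library labelled Usp18+/Δ. Hemoglobin-high cells had to be low in Mcpt1 and Mcpt2 and the cells below 1% did not, so the rule itself lowers mast cell ratios. How far it does so within the clusters was not tested. Cluster 4 was also shallow: hemoglobin-high cells in it had a median of 5461 and 5327 UMIs, against 9572 and 9196 outside. Doublet scores lay above the 95th percentile of the library for 5.45% (3.62 to 7.84%) and 2.66% (1.53 to 4.29%) of hemoglobin-high cells, against 4.96% and 4.66% of the cells below 1%.

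Between the libraries, hemoglobin-high cells made up 495 of 6886 kept cells (7.19%, 6.59 to 7.82%) in the oil library labelled Usp18+/f and 601 of 7406 (8.12%, 7.5 to 8.76%) in the tamoxifen library labelled Usp18+/Δ, which is a log2 ratio of 0.17 (0.010 to 0.34). The direction depended on where the cells lay. Cluster 4 took up 13.3% of kept cells in the first and 22.3% in the second. Within it the share was 16.1% and 19.95%, a log2 ratio of 0.31 (0.059 to 0.57). Outside it the share was 5.83% and 4.71%, a ratio of -0.31 (-0.53 to -0.084). The direction inside also rested on the limit on Mcpt1 and Mcpt2. In cluster 4, 622 of 915 and 1191 of 1654 cells were below 1%. Counted without that limit, cells of at least 1% globin were thus the smaller part in the tamoxifen library labelled Usp18+/Δ. Over all kept cells of at least 5000 UMIs the shares were 7.03% and 7.19%. With no limit on Mcpt1 and Mcpt2 they were 9.83% and 10.2%, and from 0.5% globin 15.1% and 15.2%. In cells with at most 5% mitochondrial UMIs, 1058 and 744 in the 2 libraries, they were 7.84% and 19.2%. The globin share itself reached further up in the tamoxifen library labelled Usp18+/Δ, where 15.8% of hemoglobin-high cells were at 5% or more, against 10.3%. From 1 to 2%, 287 hemoglobin-high cells made up 4.17% of one library and 300 made up 4.05% of the other.

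Within hemoglobin-high cells, 552 of 8883 genes averaging 5 CPM or more (6.21%) were at least 1.5-fold higher in the tamoxifen library labelled Usp18+/Δ and 297 (3.34%) at least 1.5-fold lower. Interferon-stimulated genes stood out by size. Isg15, a ubiquitin-like modifier that USP18 removes from proteins, stood at 34.5 and 395 CPM, a log2 ratio of 3.52 (3.27 to 3.77), against 19.5 and 89.9 CPM or 2.21 in the cells below 1%. It was seen in 99 of 495 and 301 of 601 hemoglobin-high cells. Ifit1, which binds foreign RNA, went from 8 UMIs to 215, a ratio of 4.72 (3.71 to 5.95), with 52.6% of the 215 in 10 cells. Oasl2 (4.21), Rtp4 (3.38) and Usp18 itself (2.80) complete the 5 highest ratios among genes averaging at least 20 CPM. Mx1 had no UMI in hemoglobin-high cells of the oil library labelled Usp18+/f (3 counts there would be 0.714 CPM) and 62 UMIs in 13 cells of the other, at 14.4 CPM; against that floor of 3 counts it was at least 20.2-fold higher.

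Over 35 measured interferon-stimulated genes the median log2 ratio between libraries was 1.28 in hemoglobin-high cells, against 0.00 over all genes and 0.91 in the cells below 1%. Intervals lay above 0 for 32 of them, beside 13.8% of all genes, and 29 were at least 1.5-fold higher, not counting Mx1, which has no ratio and is left out of the median. But 4 of the 35, Ifit1, Oasl2, Rtp4 and Mx1, were under 5 CPM in the oil library and entered through the other, where they had to be higher. Of the 31 that reached 5 CPM in hemoglobin-high cells of both libraries, 26 were at least 1.5-fold higher, beside 4.83% of all genes filtered the same way, with a median of 1.18 against 0.80 in the cells below 1%. B2m, the light chain of class I antigen presentation, stood at 383 and 691 CPM and Bst2, an antiviral membrane tether, at 130 and 286 CPM. Ifi27 (277 and 255 CPM) and Psmb9 had ratios of -0.12 and -0.16. Seen the other way, hemoglobin-high cells were higher than the cells below 1% by a median of 0.64 over 34 of these genes in the tamoxifen library labelled Usp18+/Δ and by 0.16 in the oil library labelled Usp18+/f. Over the 28 that reached 5 CPM in the cells below 1% of both libraries these medians were 0.55 and 0.13. Within cluster 4 the median ratio between libraries was 1.09 in hemoglobin-high cells and 0.95 in the cells below 1%, and outside it 1.18 and 0.88. The part of the cell makeup in these differences was not tested.

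**Figure D5:**
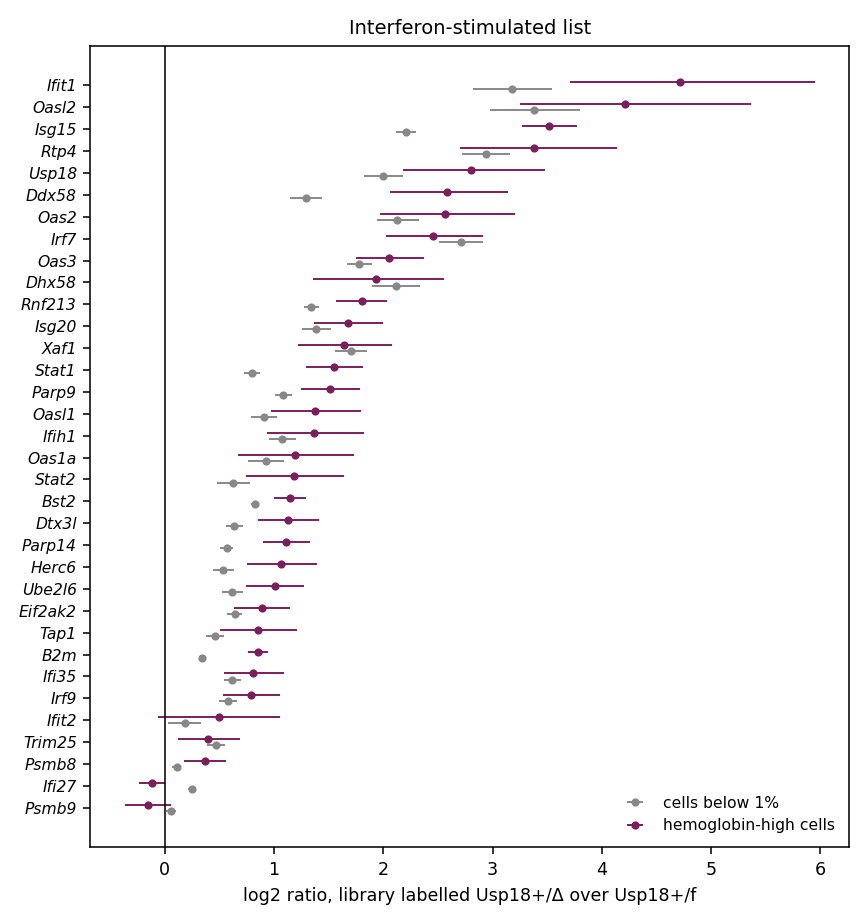
Log2 ratio of CPM in the tamoxifen library labelled Usp18+/Δ over the oil library labelled Usp18+/f (x axis) for 34 interferon-stimulated genes (y axis), in hemoglobin-high cells and in the cells below 1%, with 95% counting intervals; Mx1, with no UMI in one library, is not drawn. Most genes lie above 0 in both, and Isg15 is at 3.52 in hemoglobin-high cells and 2.21 in the cells below 1%.

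Erythroid genes differed less between the libraries. In hemoglobin-high cells the median ratio was -0.05 over the early group and 0.03 over 25 late genes. Of the 25 late genes 5 were at least 1.5-fold higher and 0 lower, beside 6.21% and 3.34% of all genes. None of the early group was either. Alas2 stood at 40.9 and 79.6 CPM, a ratio of 0.96 (0.69 to 1.23), Slc4a1 had one of 1.52 (1.03 to 2.04) and Car1 of 0.29 (0.25 to 0.33), while Tfrc had one of -0.33 (-0.50 to -0.16) and Klf1 of -0.12. Cdkn1a was higher by 1.97 (1.73 to 2.22), against 1.44 in the cells below 1%, and the 12 p53 targets by a median of 0.74 and 0.46. Among genes averaging at least 20 CPM, the lowest ratios belonged to the heat shock gene Hspa1b (-2.77, with -2.09 in the cells below 1%), the histone genes Hist1h3d (-1.39), Hist1h2ap (-1.22) and Hist1h2ab (-1.04), and Fgf3 (-1.24). Copies of the histone and Hspa1 genes are nearly identical, so their own counts are uncertain. All 21 G2 and M phase genes had intervals below 0, beside 13.7% of all genes, with a median of -0.58 against -0.16 in the cells below 1%; outside cluster 4 the median in hemoglobin-high cells was -0.22.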

How the data were processed

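Single-cell RNA-seq (10x 3′ V3 chemistry) was run on 2 pooled libraries, 1 for each group. The authors deposited gene by barcode matrices of UMI counts, made with Cell Ranger 3.0.2 per the file headers on mm10; the counts are raw. Barcodes were kept from 500 detected genes upwards and up to a mitochondrial share of 10%. The members and gene lists were chosen with earlier results of these data known. Counts were summed by library and kind of cell and given per 1000000 UMIs without globins (CPM). Ratios carry exact conditional 95% intervals and shares exact binomial ones, and the ratio of shares a score interval. No test was run, and called means at least 1.5-fold. Genes of at least 5 CPM were measured; named genes were the 10 highest and 10 lowest of at least 20 CPM by the smaller ratio of the 2 libraries, 5 each way between libraries, the most abundant 4 of each list, and fixed regulators. Of 297 list symbols, 3 had no row (Ahsp, Fam132b, Mx2). Clusters came from 2000 variable genes and 30 components (scanpy 1.11.5, leidenalg 0.10.2, resolution 0.8), without globins, Mcpt1 and Mcpt2. Doublets were scored with Scrublet and none removed. Scripts were tested on simulated data and run in Python 3.11.15 with numpy 2.4.6 and scipy 1.17.1. A few list members are counted in their lists and not reported here by name.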

Additional observations from a re-analysis of the deposited data

Results flagged for a closer look

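For 5 of the 92 named genes, the ratio of hemoglobin-high cells over the cells below 1% had counting intervals on opposite sides of 0 in the 2 libraries, as it had for 52 of all 8892 genes measured (0.585%). In the tamoxifen library labelled Usp18+/Δ the log2 ratio was 0.18 for Bst2, 0.095 for Car1, 0.17 for Srgn, -0.31 for Hist1h2ap and -0.34 for Ube2c. The differences between the libraries were not tested.

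Barcodes left out by the quality limits also held globin. Among those above 10% mitochondrial UMIs, 7.24% of 290 in the oil library labelled Usp18+/f and 4.46% of 404 in the tamoxifen library labelled Usp18+/Δ reached a globin share of 1%. Among those with fewer than 500 genes, 5.71% of 105 and 8.70% of 23 did, the last on 2 barcodes.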

How the results depend on the processing

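Of 160 main values under 15 planned settings and 3 chosen after seeing the data, 115 moved by less than their counting intervals or 1.5 times, 43 moved and 2 reversed. Of 2868 values of single genes, 891 moved and 11 reversed, and of 192 shares at other depths and neighbor values, 174 moved. Below, early and late are median log2 ratios of the erythroid groups (library labelled Usp18+/f, then Usp18+/Δ), share is the log2 ratio of the share of hemoglobin-high cells between libraries, higher and lower count genes at least 1.5-fold different in both libraries, and Δ-higher and Δ-lower count those between libraries within hemoglobin-high cells. From 0.5% globin, early was 0.23 and 0.32, higher 98, lower 32 and Δ-lower 145. From 2%, share was 0.43, early 0.59 and 0.70, late 0.90 and 0.94, higher 365, lower 339 and Δ-lower 676. From 5%, share was 0.79, early 0.96 and 0.91, late 1.44 and 1.52, higher 660, lower 1057, Δ-higher 1716 and Δ-lower 1777. Against cells below 0.1% globin, lower was 141, and with no limit on Mcpt1 and Mcpt2, higher was 304. At 5% mitochondrial UMIs or less, which kept 1058 and 744 cells, share was 1.29, lower 343, Δ-higher 1723 and Δ-lower 1302, and the ratios of Cd48 (-0.24) and Cma1 (-0.040) in the tamoxifen library labelled Usp18+/Δ and of Nkg7 (-0.77) in the other reversed. With the mean of per-cell CPM, lower was 139 and Δ-lower 534. In the added settings, hemoglobin-high cells of 1 to 2% gave a share of -0.041, reversed, early 0.20 and 0.22, late 0.39 and 0.44 and higher 90. Within cluster 4, early was 0.22 in the oil library labelled Usp18+/f, late 0.51 in the tamoxifen library labelled Usp18+/Δ, higher 120, lower 270, Δ-higher 995 and Δ-lower 722. There Cma1 (-0.56) and Nkg7 (-0.53) in the oil library labelled Usp18+/f and Lonrf2 (0.029), Cpa3 (-0.49), Cma1 (-0.66), Nkg7 (-0.37) and Hspa1b (0.12) in the other took the opposite sign. Outside cluster 4, share was -0.31, reversed, higher 111 and lower 146, and Cpa3 was at -0.32 and -0.45. The cause of these changes was not tested, beyond the smaller number of cells in the stricter settings. No paired analysis was possible because oil and tamoxifen have 1 library each; kinds of cell were compared within each library, without a test. The list counts over genes of at least 5 CPM in both libraries were also chosen after seeing the data. The late genes Alas2 and Slc4a1 rest on few UMIs, so depth limits them.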
